A study of Mus musculus with 32 samples.

Results

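The early response of YUMM3.3 melanoma cells to Activin-A was measured in 8 of the 32 wells of a BRB-seq experiment. Of these, 4 wells held untreated cells and 4 had been given 40 ng/ml Activin-A, and all were harvested after 4 hrs. They were selected by treatment and time as labelled, and no measured value entered the choice, although earlier results of these data were known. YUMM3.3 is a mouse melanoma line with mutant Braf, and treated and control wells of 6-well plates held the same line, so that the quadruplicates are wells of 1 line and p-values measure the spread between wells, which may be technical. The remaining 24 wells held the 6 other groups: 20 ng/ml IFN-γ or both factors at 4 hrs, and the same 4 conditions at 12 hrs. The labels give 40 ng/ml throughout, although the study's text gives another dose of Activin-A in places. BRB-seq attaches a barcode to the cDNA of every well, so that wells can be pooled early, and reads come from the 3′ ends of mRNAs. The comparison asks which genes of melanoma cells respond to Activin-A early, in the absence of the other cells of a tumor.

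Total counts ranged from 654539 to 1455074 in the 8 wells, both of them Activin-A wells, and from 912571 to 1123647 in the untreated wells. As a floor of detection 3 counts were used, or 2.06 to 4.58 CPM (counts scaled to the total of a well), which covers counting error only. The labelled cell type was checked against melanocyte markers. Counts reached 164 for Pmel, 144 for Tyrp1, 112 for Dct, 79 for Mlana and 30 for Sox10 in the well with the most, whereas Mitf reached 13 and Pax3 6. The leukocyte marker Ptprc reached 4 counts, and Pecam1, Cdh5, Krt5, Krt14 and Epcam were not among the genes listed. Of 10 endothelial markers 2 were listed, and the 1 tested was at 19.99 to 27.15 CPM in untreated wells. Of 12 keratinocyte markers 1 was listed and tested, at 1.918 to 9.851 CPM. Other markers set for this check, among them Tyr, Cd68, Csf1r, Kdr and Pdgfra, are not reported singly here. Not all markers of other cell types were near absent. In untreated wells a list of leukocyte markers summed to 433.7 to 477.5 CPM, with Laptm5 at 221 to 267 CPM. A list of fibroblast and pericyte markers summed to 365.3 to 423.6 CPM. On the same scale the 14 tested genes of the melanocyte list summed to 730.7 to 782.5 CPM. The counts of single markers above are raw and not on this scale.

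Activin-A is a dimer of inhibin βA chains, the product of Inhba, and a ligand of the TGF-β family. It binds the type II receptors Acvr2a and Acvr2b, which engage the type I receptor Acvr1b, and the receptor complex phosphorylates Smad2 and Smad3. These enter the nucleus with Smad4 and bind short Smad boxes in DNA together with other transcription factors. Among the genes that Smad2 and Smad3 are known to induce are inhibitors of the same pathway, matrix proteins, matrix receptors and growth factors. Follistatin, encoded by Fst, binds activins outside the cell and keeps them from their receptors.

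One Activin-A well, replicate 1, stood apart from the other 3 in some measures and is therefore described before the results. A chi-squared statistic per gene between wells of the same group was 2.447 to 2.887 in the 3 pairs with this well and 1.162 to 1.542 in the 21 other pairs at 4 hrs. When all wells were thinned to 654539 counts, the values were 2 to 2.14 and 1.1 to 1.4. The deviation of this well from the other wells of its group moved with transcript length. Spearman's rho across genes was 0.309, compared with -0.115 to 0.12 in the 15 other wells, and all of these wells share their genes, which are not independent replicates. The values of the other Activin-A wells also depend on replicate 1, which is part of the mean that each was compared with. In the 5 bins of transcript length, from shortest to longest, the median deviation on the log2 CPM scale was -0.139, -0.0262, 0.0234, 0.0633 and 0.145. The SD of its deviations over 8576 genes of at least 10 CPM was 0.322 on the log2 scale, within the range of 0.268 to 0.35 of the other wells, and 63 of these genes were at least 2-fold off, compared with 23 to 144 in the other wells (144 in replicate 2 of Activin-A). Neither the SD nor the 2-fold count was adjusted for the depth of a well. With GC content the rho was 0.0714, within the range of -0.0917 to 0.073 of the other wells. Summed levels of 6 tested mitochondrial transcripts were 20580 CPM in this well, 13880 to 14940 CPM in the other Activin-A wells and 13170 to 14030 CPM in untreated wells. For the genes and lists reported here, results are given with and without this well where it alters a call, and what set it apart was not tested.

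**Figure D1:**
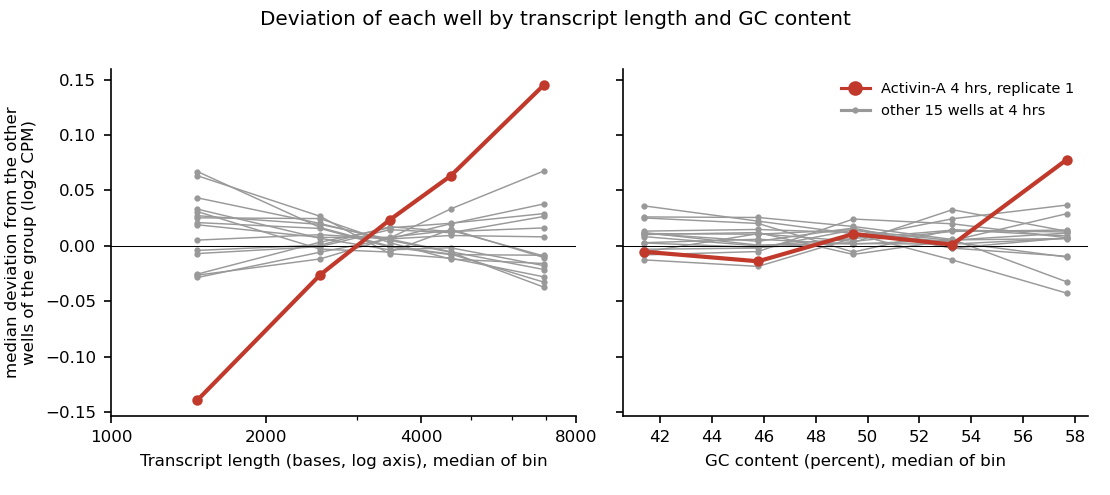
Deviation of each of the 16 wells at 4 hrs from the other wells of its group (median log2 CPM difference, y axis) in 5 bins of transcript length in bases (left, log axis) and of GC content in percent (right). Replicate 1 of Activin-A climbs from -0.139 in the bin of the shortest transcripts to 0.145 in that of the longest.

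At 4 hrs more genes were called higher than lower with Activin-A. In edgeR's quasi-likelihood test over the 16 wells at 4 hrs, 150 of 9137 genes (1.64%) were differentially expressed genes (DEGs) at a Benjamini-Hochberg adjusted p under 0.05. Of these DEGs, 96 (1.05% of the tested genes) were higher with Activin-A and 54 (0.591%) were lower. Changes of 2-fold or more were found in 23 higher and 2 lower genes, and the median log2 fold change (log2FC) of all tested genes was -0.00175. In 133 of the 150 DEGs the 4 wells of one group were all above the 4 wells of the other, as they were in 567 of all tested genes (6.21%). An unadjusted p under 0.05 was found for 1028 genes, 560 higher and 468 lower, and without replicate 1 for 471 higher and 481 lower genes. Without replicate 1 of Activin-A, 136 of 9231 genes were DEGs (1.47%), 91 higher (0.986%) and 45 lower (0.487%). Precision depended on the level of a gene, with a median SE of log2FC of 0.373 in genes under 10 CPM and 0.0699 in genes of at least 300 CPM. All log2FC values are Activin-A minus untreated, and levels are TMM-normalized CPM given in the order of replicates 1 to 4.

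Pmepa1, Smad7, Ski, Skil and Tgif1, inhibitors of the Smad pathway, were higher with Activin-A. Of 19 listed symbols of feedback inhibitors 17 were tested, of which these 5 rose and 0 fell, against 1.05% and 0.591% of all tested genes. Without replicate 1 there were also 5, with Spsb1 in place of Tgif1. The list had a median log2FC of 0.21, against -0.00175 for all genes. Pmepa1 (ENSMUSG00000038400, chr2:173224458-173276533 in GENCODE M21 on GRCm38) encodes a membrane protein that sequesters Smad2 and Smad3. It stood at 49, 65.2, 48.2 and 61 CPM in untreated wells and at 347, 315, 283 and 362 CPM with Activin-A. All Activin-A wells were far above all untreated wells, and this was the smallest adjusted p of the comparison (log2FC 2.55, SE 0.109, adjusted p = 2.15e-26, and log2FC 2.51 without replicate 1). Smad7 (ENSMUSG00000025880), which blocks type I receptors and recruits ubiquitin ligases to them, was at 30.7, 28.8, 26.3 and 31 CPM in untreated wells and 56.1, 58.1, 48.4 and 51.9 CPM in Activin-A wells. The groups did not overlap (log2FC 0.86, SE 0.163, adjusted p = 0.000458). Ski, a corepressor that binds Smad complexes, rose from 121 to 131 to 159 to 186 CPM (log2FC 0.43, SE 0.0932, adjusted p = 0.00352). The related corepressor Skil was at 17.5, 15.3, 20.8 and 20.0 CPM without and 21.8, 42.8, 37 and 31.8 CPM with Activin-A. Replicate 1, at 21.8 CPM, was the lowest of the Activin-A wells but still above all untreated wells. The log2FC of Skil was 0.79 (SE 0.217, adjusted p = 0.0411) with all wells and 0.98 without replicate 1 (adjusted p = 0.00398), and the call was lost in 11 of 19 alternatives (adjusted p up to 0.153). Tgif1, a corepressor that recruits histone deacetylases to Smads, was higher with Activin-A by a log2FC of 0.31 (adjusted p = 0.0465, and 0.092 without replicate 1). Its call was lost in 10 of 20 alternatives (adjusted p up to 0.231). Spsb1, which targets a TGF-β receptor for degradation, and Ldlrad4, a relative of Pmepa1, had log2FC values of 0.84 and 1.02 but did not pass the test with all wells (adjusted p = 0.0637 and 0.189). Without replicate 1 the adjusted p of Spsb1 was 0.045.

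**Figure D2:**
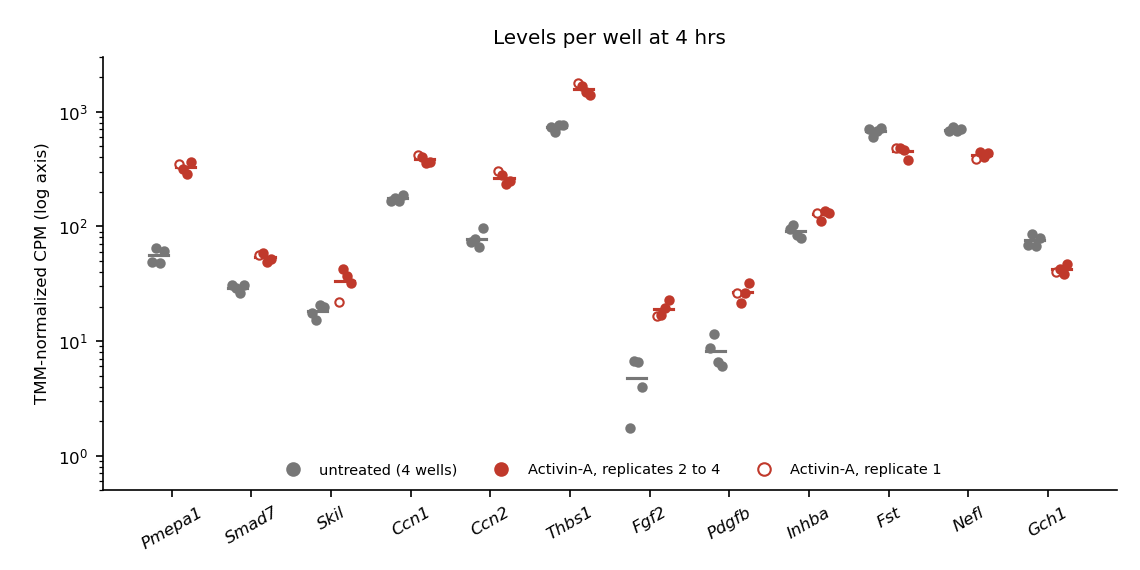
Levels of 12 genes in the 8 wells (TMM-normalized CPM, log axis), with each point a well, the line the mean of 4 wells and the open circle replicate 1 of Activin-A. Pmepa1 lies at 48.2 to 65.2 CPM without and 283 to 362 CPM with Activin-A, whereas Fst, Nefl and Gch1 lie lower with Activin-A.

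Of 42 listed genes known as targets of Smad2 and Smad3, 32 were tested, of which 9 rose, 1, Cdkn1a, fell and the others did not pass the test, where 1.05% of all tested genes rose and 0.591% fell. The list's median log2FC was 0.33, and 27 of the 32 had a positive log2FC. Without replicate 1 the counts were 10 and 0. Thbs1 (ENSMUSG00000040152, chr2:118111876-118127133), encoding thrombospondin-1, a matrix glycoprotein that activates latent TGF-β, was abundant at 738, 671, 765 and 768 CPM in untreated wells and rose to 1763, 1681, 1473 and 1413 CPM. Its lowest Activin-A well was far above the highest untreated well (log2FC 1.11, SE 0.063, adjusted p = 1.24e-20). The matricellular genes Ccn2 and Ccn1, which are also targets of YAP and TEAD factors, behaved likewise. Ccn2 (ENSMUSG00000019997, chr10:24595442-24598683) was at 73.6, 77.7, 65.7 and 95.9 CPM without the factor and at 301, 281, 236 and 247 CPM after it (log2FC 1.77, SE 0.108, adjusted p = 2.59e-19). Ccn1 was at 167, 177, 167 and 189 CPM without and 419.8, 401, 355 and 367 CPM with it (log2FC 1.14, SE 0.0876, adjusted p = 4.47e-15). In neither gene did the groups overlap. Of 22 tested targets of YAP and TEAD, 3 were higher (Ccn2, Ccn1 and Gadd45b, all 3 of them also listed as Smad targets) and 0 lower, with a median log2FC of 0.16.

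Of the Smad targets that rose, Fgf2, Pdgfb and Pdgfa encode growth factors. Fgf2 (ENSMUSG00000037225, chr3:37348346-37410108), a mitogen of fibroblasts and endothelial cells, was listed at 1.75, 6.71, 6.57 and 4 CPM in untreated wells, near the floor of detection, and at 16.5, 16.8, 19.4 and 22.7 CPM in Activin-A wells (log2FC 2.0, SE 0.358, adjusted p = 0.000248). It overlaps Nudt6 on the opposite strand, and Nudt6 itself did not pass the test. Pdgfb, which encodes the B chain of platelet-derived growth factor, was at 8.76, 11.5, 6.57 and 6 CPM without and 26.4, 21.4, 26.4 and 31.8 CPM with Activin-A. All Activin-A wells were above all untreated ones (log2FC 1.69, SE 0.256, adjusted p = 9.74e-06). Pdgfa, the A chain, rose less, from 196, 210.0, 169 and 191 to 259, 214, 256 and 258 CPM, with replicate 2 well below the other Activin-A wells (log2FC 0.38, SE 0.0871, adjusted p = 0.00726). Its call was lost when untreated replicate 3 was left out (adjusted p up to 0.0619) and, by construction, with an absolute log2FC of at least 0.5. Pdgfc, outside the list, was at 35.9, 26.8, 19.7 and 17 CPM in untreated and 61.4, 52, 61.6 and 34.6 CPM in Activin-A wells, in which replicate 4 was below the highest untreated well (log2FC 1.07, SE 0.196, adjusted p = 0.000338). The stress sensors Gadd45a (log2FC 0.51, adjusted p = 0.00634) and Gadd45b (log2FC 0.90, adjusted p = 0.00791, but 0.0603 without untreated replicate 3) rose as well. Cdkn1a, the cell cycle inhibitor p21, was lower at 104, 116, 136 and 103 CPM compared with 147, 148, 148 and 176 CPM in untreated wells (log2FC -0.43, SE 0.107, adjusted p = 0.0149). Without replicate 1 its adjusted p was 0.0621, and the call was lost in 6 of 20 alternatives.

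Among ligands and their antagonists, Inhba rose and Fst fell, and the remaining 14 of 16 tested genes did not pass the test. Over all tested genes, 1.05% rose and 0.591% fell. Inhba was at 95.5, 104, 84.3 and 79 CPM in untreated and at 131, 112, 136 and 132 CPM in Activin-A wells. The lowest Activin-A well was above the highest untreated well (log2FC 0.51, SE 0.107, adjusted p = 0.00256). Fst (ENSMUSG00000021765, chr13:114452290-114458951) was at 709, 602, 672 and 715 CPM in untreated wells and at 482, 485, 462 and 381 CPM with Activin-A. The highest Activin-A well lay below the lowest untreated well (log2FC -0.58, SE 0.0692, adjusted p = 3.39e-08, and log2FC -0.62 without replicate 1). Fstl1, encoding a follistatin-like glycoprotein, had a log2FC of 0.29 and an adjusted p of 0.0505. Of 16 receptors and Smads tested, 0 passed the test in either direction, and 1 of them, Bmpr2, a type II receptor for BMPs, had an adjusted p of 0.0536 (log2FC 0.58). Of 7 genes that read out BMP signalling 0 passed, with Id3, a target of BMP-activated Smads, at a log2FC of -0.24 (adjusted p = 0.146). As 1.64% of all tested genes were called, 0 calls among 16 or 7 genes do not set these lists apart from other genes. A p above the threshold does not show that these genes were equal in both groups.

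Several of the genes with the highest log2FC stood outside the pathway lists. Zfp469, which encodes a zinc finger protein, was at 4.38, 2.88, 7.66 and 3 CPM without and 18.5, 29.1, 22 and 21.8 CPM with Activin-A, so that a low-abundance transcript rose well above the floor in every treated well (log2FC 2.29, SE 0.332, adjusted p = 4.27e-06). Ust, encoding a sulfotransferase that modifies glycosaminoglycans, was at 8.76, 9.59, 7.66 and 8 CPM and 35, 27.5, 28.2 and 37.3 CPM, respectively (log2FC 1.92, SE 0.251, adjusted p = 3.63e-07). The groups did not overlap in either gene. Tnnt2, cardiac troponin T, a known target of TEAD factors in muscle, was at 1.75, 5.75, 4.38 and 5 CPM in untreated and 11.2, 13.8, 18.5 and 22.7 CPM in Activin-A wells (log2FC 1.95, SE 0.372, adjusted p = 0.000531). Cdh6, a cadherin, rose from 32.4 to 37 to 58.1 to 92.4 CPM (log2FC 1.13, SE 0.156, adjusted p = 1.59e-06). Ranks were taken among DEGs called with and without replicate 1 and with at least 10 counts on average. The amino acid transporter Slc43a2 (log2FC 1.44), the filamin-binding Rflnb (log2FC 1.33), the serine protease Prss23 (log2FC 1.22) and the tubulin glutamylase Ttll5 (log2FC 1.22) were also among the 15 highest. Of these, Rflnb lost its call in 4 of 19 alternatives (adjusted p up to 0.0925). Ttll5 overlaps Tgfb3 on the opposite strand, and Tgfb3 itself did not pass the test. Acsbg1 and Fgd3 had some of the highest log2FC values but fewer than 10 counts on average and are given as levels. Acsbg1, a fatty acid-activating enzyme, was at 0, 4.79, 1.09 and 5 CPM in untreated and 12.5, 10.7, 15.8 and 18.2 CPM in Activin-A wells. Fgd3 was at or under 2 counts in every untreated well and at 9.90, 4.59, 5.28 and 8.19 CPM with Activin-A, where replicate 2 was at the floor of 3 counts per well. The call of Fgd3 was lost without untreated replicate 1 and in 1 other alternative (adjusted p up to 0.0531).

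Integrins, the receptors by which cells hold on to matrix, included 4 DEGs among 9 tested, all 4 of them higher (5 without replicate 1), where 1.05% of all tested genes were higher. The log2FC was positive in 5 of the 9. Itga5, the α chain of the fibronectin receptor, was at 162, 164, 183 and 172 CPM in untreated and 273, 191, 248 and 267 CPM in Activin-A wells (log2FC 0.55, SE 0.0918, adjusted p = 6.03e-05). Replicate 2 was the lowest of the treated wells, and the groups did not overlap. Itgb5, which pairs with αV to bind vitronectin, rose from 63.9 to 86.5 to 114 to 122 CPM (log2FC 0.68, SE 0.119, adjusted p = 0.000189). The αV chain Itgav (log2FC 0.46, adjusted p = 0.0018) and the β1 chain Itgb1 (log2FC 0.24, adjusted p = 0.0175) rose less. The call of Itgb1 was lost in 4 of 20 alternatives, including the one without untreated replicate 1 (adjusted p up to 0.0955).

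Matrix genes changed in part. Of 40 tested 5 rose and 0 fell (6 and 0 without replicate 1), against 1.05% and 0.591% of all tested genes, and 26 of the 40 had a positive log2FC, with a median of 0.15. Besides Thbs1 they were the fibrillar collagens Col5a1 (73 to 84.4 to 102 to 135 CPM, log2FC 0.58, SE 0.124, adjusted p = 0.00311) and Col5a2 (99.7 to 137 to 141 to 176 CPM, log2FC 0.50, SE 0.103, adjusted p = 0.002). Col18a1, the basement membrane collagen from which endostatin is cleaved, went from 269.8 to 318 to 386 to 416 CPM (log2FC 0.42, SE 0.0747, adjusted p = 0.000248). Dmp1, a phosphoprotein of mineralized matrix, went from 168 to 194 to 216 to 300.2 CPM (log2FC 0.43, SE 0.0925, adjusted p = 0.00297). Its call was lost without Activin-A replicate 4, the highest well (adjusted p up to 0.0613), and, by construction, with an absolute log2FC of at least 0.5. Fibronectin, the type I and type IV collagens and Sparc, a collagen-binding matrix protein, did not pass the test.

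Cytoskeletal genes included 5 higher and 0 lower DEGs among 25 tested, against 1.05% and 0.591% of all tested genes (4 and 0 without replicate 1, against 0.986% and 0.487%). Cald1, an actin- and myosin-binding protein, rose from 166 to 201 to 225 to 267 CPM (log2FC 0.47, SE 0.0852, adjusted p = 0.000288). The PDZ and LIM domain scaffolds Pdlim5 and Pdlim7 had log2FC values of 0.65 (adjusted p = 0.000395) and 0.44 (adjusted p = 0.00212). Vcl, encoding vinculin of focal adhesions, was called with all wells (log2FC 0.32, adjusted p = 0.0351) but in 11 of 20 alternatives was not, including the fit without replicate 1 (adjusted p = 0.262). Acta2, smooth muscle actin, was at 397, 410.4, 360.1 and 407 CPM in untreated and 467, 479, 423 and 415 CPM in Activin-A wells and did not pass the test (log2FC 0.18, adjusted p = 0.288).

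**Figure D3:**
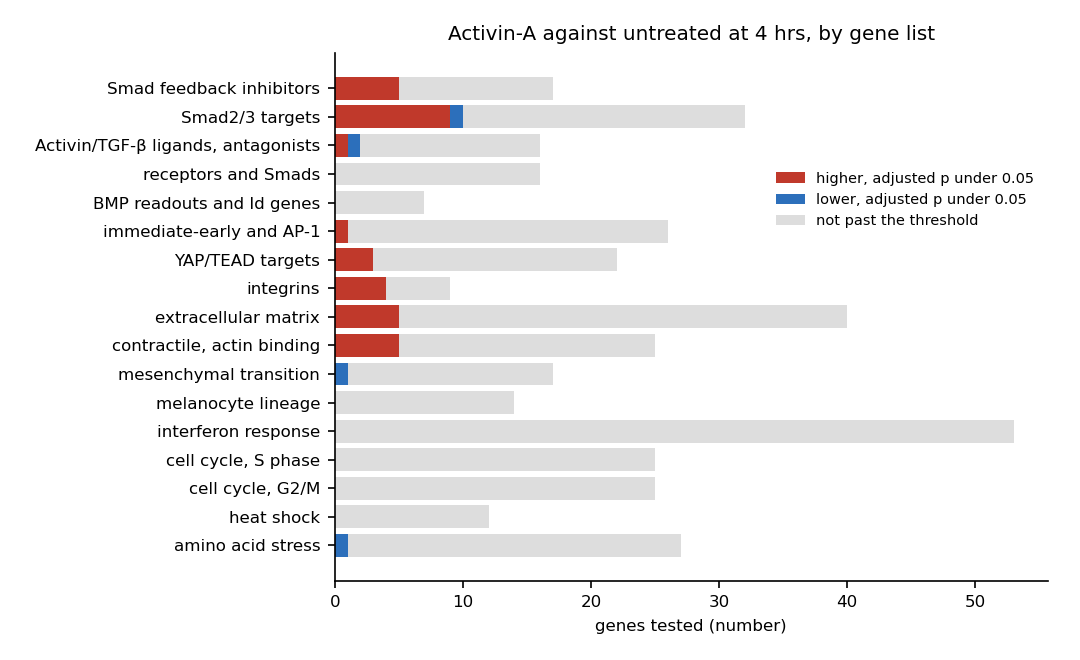
Number of tested genes in each gene list (x axis) that were higher, lower or did not pass an adjusted p of 0.05 with Activin-A against untreated at 4 hrs. Higher genes outnumber lower ones in the Smad, integrin, matrix and cytoskeletal lists, and the melanocyte, interferon, heat shock and both cell cycle lists hold no DEG. Of all tested genes 1.64% were called.

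Of the genes that fell, 2 did so by at least 2-fold. Fgf10, a growth factor of epithelia, was at 27.2, 40.3, 26.3 and 21 CPM in untreated and 12.5, 13.8, 17.6 and 10.9 CPM in Activin-A wells, without overlap (log2FC -1.07, SE 0.231, adjusted p = 0.00333). Its adjusted p was 0.069 without untreated replicate 2, the highest of the untreated wells. Notum, which encodes a deacylase that inactivates Wnt proteins, was at 14.9, 17.3, 16.4 and 19 CPM and 7.92, 13.8, 5.28 and 7.28 CPM, respectively. Its call (log2FC -1.07, adjusted p = 0.0496) was lost without replicate 1 of Activin-A (adjusted p = 0.121) and in 14 of 19 alternatives in all (adjusted p up to 0.224).

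The other lower genes fell by less than 2-fold. Nefl (ENSMUSG00000022055, chr14:68083863-68089095), the light chain of neurofilaments, was at 676, 733, 674 and 701 CPM in untreated wells and 389, 449.6, 406 and 437 CPM in Activin-A wells. The 2 groups were far apart (log2FC -0.74, SE 0.0665, adjusted p = 2.32e-12). Its neighbour Nefm, the medium chain, was at 62.2, 45.1, 41.6 and 75 and 44.9, 32.1, 21.1 and 20.9 CPM, and replicate 1 of Activin-A overlapped the untreated wells (log2FC -0.88, SE 0.193, adjusted p = 0.00444, and adjusted p = 0.077 without untreated replicate 4). Nefm and Nefl overlap on opposite strands in the annotation, and a strand setting of the counting was not given in the sources used here, so that their reads could not be told apart in the overlap. Gch1, the rate-limiting enzyme of tetrahydrobiopterin synthesis, fell from 66.8 to 86.3 to 38.7 to 47.3 CPM (log2FC -0.85, SE 0.137, adjusted p = 3.62e-05). Ramp3, an accessory protein of the calcitonin receptor-like receptor, fell from 76.6 to 91.1 to 35.5 to 57.2 CPM (log2FC -0.98, SE 0.142, adjusted p = 4.27e-06).

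Il33, an alarmin cytokine, was at 229, 217, 187 and 219 CPM in untreated and 142, 149.9, 154 and 147 CPM in Activin-A wells, without overlap (log2FC -0.53, SE 0.0905, adjusted p = 0.000108). Its receptor Il1rl1 changed the other way, from 43.8 to 51.4 to 62.8 to 79.5 CPM (log2FC 0.55, SE 0.132, adjusted p = 0.0104, and adjusted p up to 0.0686 in 3 of 20 alternatives in which the call was lost). Stc1, a secreted glycoprotein hormone, was within a narrow range in both groups, 81 to 88.7 CPM without and 56.3 to 59.1 CPM with Activin-A. It had a log2FC of -0.56 (SE 0.134, adjusted p = 0.0101). Ndp, a ligand of the receptor Frizzled4, had a log2FC of -0.61 (adjusted p = 0.00197). The metallothioneins Mt1 and Mt2, which bind zinc and copper, were both lower. Mt1 fell from 774 to 926 to 588 to 683 CPM (log2FC -0.42, SE 0.0656, adjusted p = 1.56e-05). Mt2 was at 281, 270.4, 269 and 157 CPM in untreated wells, of which replicate 4 lay within the range of the Activin-A wells, at 179.5, 147, 183 and 175 CPM (log2FC -0.50, SE 0.119, adjusted p = 0.0101). Its call was lost in 9 of 20 alternatives, with an adjusted p of up to 0.312. The 2 genes are related in sequence, and reads that both could claim were not reassigned. The lowest log2FC values were ranked among DEGs called with and without replicate 1 and with at least 10 counts on average. Akr1c18, a hydroxysteroid dehydrogenase (log2FC -0.53), Pter (log2FC -0.66), Arhgap6, a GTPase-activating protein (log2FC -0.81), Cytip, a cytohesin-binding protein (log2FC -0.55), and Ezr, encoding ezrin, which links actin to the membrane (log2FC -0.56), completed the 15 lowest of them. Of these, Ezr lost its call in 7 of 20 alternatives (adjusted p up to 0.243), Arhgap6 in 4 of 19 (up to 0.0619) and Cytip in 2 of 20 (up to 0.107, without untreated replicate 3).

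In 6 lists of other programs, of 9 to 27 tested genes, 1 or 2 genes each were called, where 1.64% of all tested genes were. Of 26 immediate early genes 1 passed, Klf4, a zinc finger transcription factor, which was higher (log2FC 0.41, adjusted p = 0.0248, and 0.278 without replicate 1). Junb, an AP-1 subunit and known Smad target, had a log2FC of 0.54 (adjusted p = 0.0667) with all wells and 0.62 (adjusted p = 0.0306) without replicate 1. Among 17 genes of mesenchymal transition 0 rose and 1, Twist1, fell (log2FC -0.34, adjusted p = 0.0137, lost in 4 of 20 alternatives). Of 9 Wnt and Notch readouts Notum, given above, fell, and Hes1, a target of Notch, was higher (log2FC 0.51, adjusted p = 0.0198, lost in 6 of 20). Bnip3, a mitophagy receptor induced by hypoxia, was the only DEG among 22 hypoxia and angiogenesis genes and was lower, at 125 to 184 CPM against 185 to 234 CPM (log2FC -0.49, SE 0.0999, adjusted p = 0.0018) while the list's median log2FC was -0.14. Spry2, an inhibitor of receptor tyrosine kinase signalling and 1 of 21 tested genes of MAPK feedback, fell (log2FC -0.44, adjusted p = 0.031, and 0.135 without replicate 1). So did Psph, the last enzyme of serine synthesis and 1 of 27 genes of amino acid stress (log2FC -0.59, adjusted p = 0.0462, and 0.0762 without replicate 1, lost in 12 of 20 alternatives). Without replicate 1 the MAPK feedback list held 1 higher and 0 lower DEGs. The higher one was another gene, as Spry2 lost its call but kept its negative sign. In that fit the Wnt and Notch list held 2 higher and 0 lower DEGs. The immediate early list held 2 higher ones and the amino acid stress list 0.

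No call was made among 14 tested melanocyte genes, 53 interferon response genes, 25 genes of S phase, 25 of G2 and M phase, 23 of sterol synthesis, 12 heat shock genes, 6 histone genes and 6 mitochondrial transcripts. As 1.64% of all tested genes were called, 0 calls in lists of these sizes do not set them apart from other genes. Without replicate 1 a mitochondrial transcript, mt-Co1, was called. The medians of the melanocyte and interferon lists were -0.04 and 0.02. Of markers of other cell types, Laptm5, a lysosomal protein known from leukocytes, was higher at 277 to 325 CPM against 221 to 267 CPM (log2FC 0.36, adjusted p = 0.00634). It was the only DEG of 4 tested leukocyte markers, all 4 of which had a positive log2FC (median 0.243). Cspg4 (log2FC 0.52, adjusted p = 0.00823) and Mcam (log2FC 0.99, adjusted p = 0.0393), which mark pericytes and are also melanoma antigens, were higher with all wells. They were 2 of 6 tested fibroblast and pericyte markers, where 1.05% of all tested genes were higher. Without replicate 1 neither was a DEG (adjusted p = 0.172 and 0.0749). The summed level of the 6 tested fibroblast and pericyte markers was 489.1 CPM in replicate 1, 396.9 to 454.2 CPM in the other Activin-A wells and 365.3 to 423.6 CPM in untreated wells.

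The sequence upstream of the DEGs was searched for 3 short motifs on both strands, in the 250 bases before each start site given by RefSeq on GRCm38.p6. Promoters were at hand for 71 of the 96 higher and 41 of the 54 lower DEGs. The Smad box CAGACA or its complement TGTCTG was present in 20.6% of 102 promoters of higher DEGs, 11.1% of 54 promoters of lower DEGs and 12.8% of 9386 promoters of all tested genes. The TEAD motif GGAATG or CATTCC was present in 14.7%, 13.0% and 10.0%, respectively, and the AP-1 motif TGANTCA in 5.88%, 9.26% and 4.3%. Over all 32851 promoters of the mouse table the shares were 17.1%, 12.6% and 6.75%. Matches of different motifs were counted separately where they overlapped. A match is a string of letters and not a binding site. Pmepa1, Ccn2, Thbs1 and Fst had no entry. Shown are 3 genes that rose and hold a TEAD motif or a Smad box, Ccn1 (chr3:145649986-145650235, minus strand), Tnnt2 (chr1:135836084-135836333, plus strand, 1 of 2 start sites) and Pdgfc (chr3:81036166-81036415, plus strand), each from 5′ to 3′ up to the base before the start site with the matches in capitals.
Ccn1: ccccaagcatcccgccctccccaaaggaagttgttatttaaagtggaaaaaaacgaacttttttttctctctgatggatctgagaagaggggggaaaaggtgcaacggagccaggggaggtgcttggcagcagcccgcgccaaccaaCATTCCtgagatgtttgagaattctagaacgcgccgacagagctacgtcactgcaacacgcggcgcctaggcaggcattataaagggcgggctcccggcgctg
Tnnt2: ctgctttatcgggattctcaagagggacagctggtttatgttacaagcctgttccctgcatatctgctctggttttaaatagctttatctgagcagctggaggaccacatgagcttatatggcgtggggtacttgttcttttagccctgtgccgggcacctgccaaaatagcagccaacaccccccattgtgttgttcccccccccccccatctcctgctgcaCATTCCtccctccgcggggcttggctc
Pdgfc: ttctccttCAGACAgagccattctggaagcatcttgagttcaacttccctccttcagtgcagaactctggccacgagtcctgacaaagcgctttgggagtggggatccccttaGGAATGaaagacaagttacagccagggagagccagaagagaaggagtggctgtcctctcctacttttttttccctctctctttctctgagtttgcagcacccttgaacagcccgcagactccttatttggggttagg
In Ccn1 the TEAD motif lies at -103 to -98 relative to the start site and in Tnnt2 at -27 to -22. In Pdgfc the Smad box lies at -242 to -237 and the TEAD motif at -137 to -132.

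Replicate 1 changed which genes were called more than how many. Of the 150 DEGs, 107 were DEGs without it and 43 were not (26 higher, 17 lower), 29 others were gained, and all 150 had the same sign. Both fits share all other wells, so that equal signs were largely given in advance. Leaving out any other of the 8 wells lost 24 to 50 of the 150 calls and gained 6 to 37, so that the loss of 43 lay within the range of the other wells. The lost genes that were higher had a median transcript length of 4754 bases and those that were lower one of 2087 bases, compared with 3479 bases for all tested genes. The DEGs that stayed had medians of 3968 bases (higher) and 3164 bases (lower). When each well's trend with transcript length was removed, an alternative chosen after seeing the data, 156 genes were DEGs, 134 of them among the 150. Of the 107 that stayed without replicate 1, 103 were called in that fit, and of the 43 that were lost 31 were. Of the 29 genes gained without replicate 1, 9 were called in it.

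Lrp1, an endocytic receptor, was among the lost genes with the smallest adjusted p. It was at 329, 309, 333 and 359.8 CPM in untreated and 573, 338, 404 and 408 CPM in Activin-A wells, so that replicate 1 exceeded the others by far and replicate 2 lay within the untreated range (log2FC 0.40, SE 0.0899, adjusted p = 0.00552, and adjusted p = 0.173 without replicate 1). Wwc2, a regulator of the Hippo pathway, was at 40.3, 35.5, 24.1 and 31 and 71.3, 64.2, 41.4 and 48.2 CPM, without overlap (log2FC 0.77, SE 0.173, adjusted p = 0.00552, and adjusted p = 0.12). Sulf2, which removes sulfate from heparan sulfate, had a log2FC of 1.03 with all wells (adjusted p = 0.00924) and 0.92 without replicate 1 (adjusted p = 0.0653). On the lower side, Btc, an EGF receptor ligand, was at 232, 211, 188 and 204 CPM without and 137, 171, 169.8 and 168 CPM with Activin-A, and replicate 1 was the lowest well (adjusted p = 0.00791, and 0.0727 without it). Igfbp6, an IGF-binding protein, and Mtus1, a microtubule-associated protein, were lost as well (adjusted p = 0.142 and 0.083). In the separate wells at 12 hrs Lrp1, Wwc2, Sulf2, Btc and Igfbp6 were DEGs in the same direction (adjusted p = 0.000715, 0.0259, 0.0435, 5.88e-06 and 6.55e-09). They were among 12 such genes of the 42 lost genes tested at 12 hrs. Wwc2 was also a DEG with both factors against IFN-γ at 4 hrs (adjusted p = 0.00136), 1 of 2 such genes among the 43 lost.

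Genes gained without replicate 1 included some in which this well went against the other 3. Zbtb14, a zinc finger repressor, was at 18.5, 3.06, 3.52 and 5.46 CPM with Activin-A, replicate 1 at 18.5 CPM being above all untreated wells (13.1, 17.3, 14.2 and 8.99 CPM). Its log2FC was -0.58 with all wells (adjusted p = 0.569) and -1.67 without replicate 1 (adjusted p = 0.0182). Amigo2, an adhesion molecule, was at 177, 124, 121 and 119 CPM against 138, 153, 171 and 169.9 CPM in untreated wells, with log2FC values of -0.19 and -0.38 (adjusted p = 0.539 and 0.0387). Fgf7, a growth factor of epithelia like Fgf10, was at 36.3, 27.5, 28.2 and 28.2 CPM against 38.5, 44.1, 50.3 and 49 CPM (log2FC -0.69, adjusted p = 0.0343 without replicate 1). The nuclear lamina gene Lmna and the kinase scaffold Trib1 were also gained on the lower side (adjusted p = 0.00652 and 0.0166). Gained on the higher side were Spp1, encoding osteopontin, with log2FC 0.18 (adjusted p = 0.00431), the G protein subunit Gng11, the ribosomal protein gene Rpl41, the focal adhesion gene Tes and mt-Co1, a subunit of cytochrome c oxidase. Of these, mt-Co1 was at 337, 558, 464 and 1042 CPM, with replicate 4 far above the others.

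**Figure D4:**
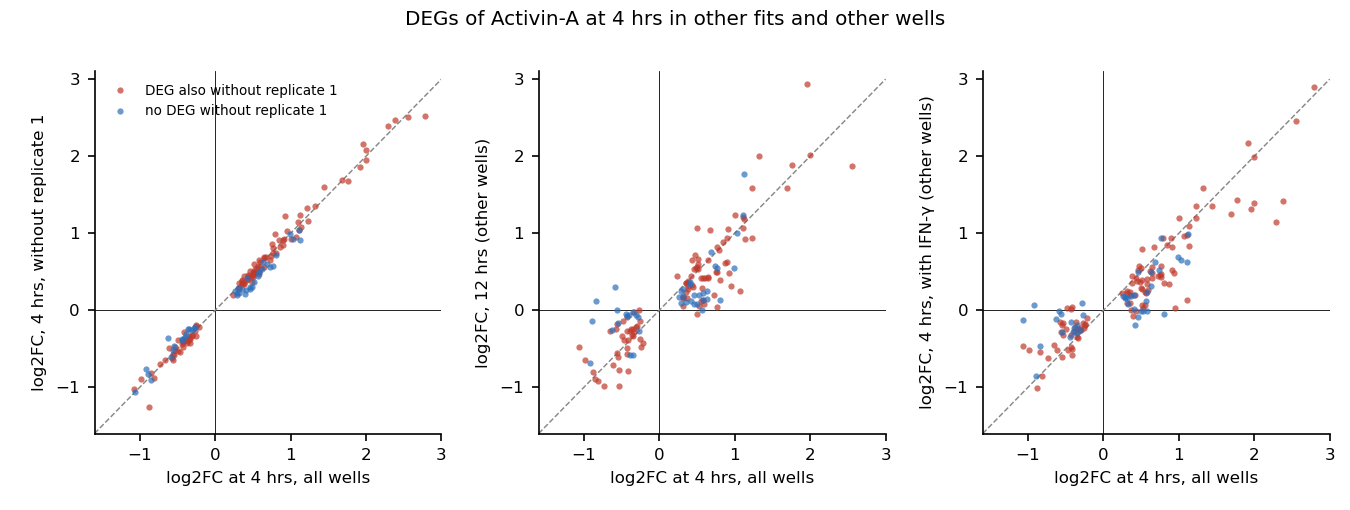
log2FC of the DEGs of Activin-A at 4 hrs (x axis, all wells) against their log2FC without replicate 1, at 12 hrs and in the presence of IFN-γ at 4 hrs (y axes), with the dashed line where both are equal. All 150 keep their sign without replicate 1, in a fit that shares all its other wells with the x axis. In wells that share no library with the x axis, 138 of 143 tested have the same sign at 12 hrs and 137 of 150 with IFN-γ.

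The early DEGs were followed into wells that shared no library with them. At 12 hrs, 216 of 8971 genes were DEGs with Activin-A (2.41%). Of the 150 early DEGs 143 were tested at 12 hrs, 138 had the same sign, and 78 were DEGs in the same direction, which is 52% of the early DEGs and 36.1% of those at 12 hrs. Over all genes tested at both times 57.3% had the same sign. Of the early DEGs that stayed without replicate 1, 99 of 101 had the same sign at 12 hrs and 66 were DEGs. Of those that were lost without it, 39 of 42 had the same sign and 12 were DEGs. Pmepa1 was at 30.3, 43.1, 47.4 and 34.1 CPM in untreated wells at 12 hrs and at 182, 103, 107 and 168 CPM with Activin-A (log2FC 1.87, SE 0.147). Levels at 4 and 12 hrs were normalized separately. Ccn2 and Thbs1 had log2FC values of 1.88 and 1.07 at 12 hrs, compared with 1.77 and 1.11 at 4 hrs. Pdgfc was no DEG at 12 hrs (log2FC 0.26, adjusted p = 0.651), nor were Itga5 (log2FC 0.13), Col5a1 (log2FC 0.13), Twist1 (log2FC -0.03) or Bnip3 (log2FC -0.14). For none of them was the difference between the effects at 12 and 4 hrs called. Its adjusted p was 0.726 for Pdgfc, 0.62 for Itga5 and 0.727 for Col5a1.

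The difference between the effects at 12 and 4 hrs was tested over all 32 wells. It was called for 2 of 9332 genes (0.0214%), Acta2 and Bgn, both with a larger effect at 12 hrs, and 569 genes had an unadjusted p under 0.05. Acta2 was at 445, 408, 441 and 494 CPM in untreated and 719, 739, 687 and 675 CPM in Activin-A wells at 12 hrs (log2FC 0.66, against 0.18 at 4 hrs). The groups at 12 hrs were well apart, whereas those at 4 hrs were close. The effects differed by 0.50 (SE 0.0929, adjusted p = 0.00751, and 0.000852 without replicate 1 of Activin-A at 4 hrs). Bgn, encoding biglycan, a small proteoglycan of the matrix, was at 668, 715, 681 and 729.5 CPM in untreated and 902, 708, 715 and 904 CPM in Activin-A wells at 4 hrs, with 2 of the treated wells within the untreated range. At 12 hrs it was at 645, 619.7, 642 and 656 CPM and 1151, 1020, 918 and 1074 CPM. Its effects differed by 0.49 (SE 0.0966, adjusted p = 0.0107, and 0.000434 without replicate 1 of Activin-A at 4 hrs). Both calls were lost without untreated replicate 2 at 4 hrs (adjusted p = 0.0545 for both) and without Activin-A replicate 3 at 4 hrs (0.051 and 0.144), and that of Bgn in 3 further fits that left out 1 well each, untreated replicate 4 (0.0755) or Activin-A replicate 2 (0.0904) at 4 hrs, or Activin-A replicate 1 at 12 hrs (0.193). Il33 had a log2FC of -0.98 at 12 hrs and -0.53 at 4 hrs, a difference that did not pass the test (adjusted p = 0.413).

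With IFN-γ present in both groups, Activin-A gave 74 DEGs of 9137 genes at 4 hrs (0.81%). Without replicate 1 of the Activin-A wells, which takes no part in this comparison but enters the shared estimate of the spread, 134 of 9231 genes were DEGs (1.45%). Of the 150 DEGs of Activin-A alone, 137 had the same sign with IFN-γ, against 56.1% of all tested genes. Of these 150, 45 were DEGs in the same direction, which is 30% of the DEGs of Activin-A alone and 60.8% of those with IFN-γ, and 36 were DEGs in all 3 comparisons. Among the DEGs that stayed without replicate 1, 43 of 107 were DEGs with IFN-γ, and among those lost 2 of 43 were. Pmepa1 was at 65.4, 51.5, 36.8 and 58.6 CPM with IFN-γ alone and at 282, 287, 299 and 315 CPM with both factors (log2FC 2.45, adjusted p = 1.07e-24). Ust (log2FC 2.17), Thbs1 (log2FC 0.97) and Nefl (log2FC -0.62) were DEGs as well.

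The difference between the effects of Activin-A with and without IFN-γ was called for 0 of 9137 genes (0%) with edgeR, and 505 had an unadjusted p under 0.05. DESeq2 likewise called 0. Without replicate 1 of Activin-A, 1 gene was called, Fst (difference 0.474, SE 0.0837, adjusted p = 0.00176), for which the fit with all wells gave 0.42 (SE 0.0929, adjusted p = 0.278). Fst was also the 1 gene called without a filter on low counts (adjusted p = 0.0495), with robust dispersion (0.0389), with limma voom and quality weights (0.0174) and with all 32 wells in 1 fit (0.0377). Fst was at 1652, 1648, 1698 and 1825 CPM with IFN-γ alone and at 1503, 1604, 1479 and 1539 CPM with both factors, both far above the wells without IFN-γ. Its log2FC with Activin-A was -0.58 without IFN-γ, -0.16 with it (adjusted p = 0.338) and -0.25 at 12 hrs (adjusted p = 0.00501). Smad7, Itga5 and Gadd45a were no DEGs in the presence of IFN-γ (log2FC 0.34, 0.07 and 0.06), but their effects with and without IFN-γ were not called different (adjusted p = 0.865, 0.546 and 0.824).

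**Figure D5:**
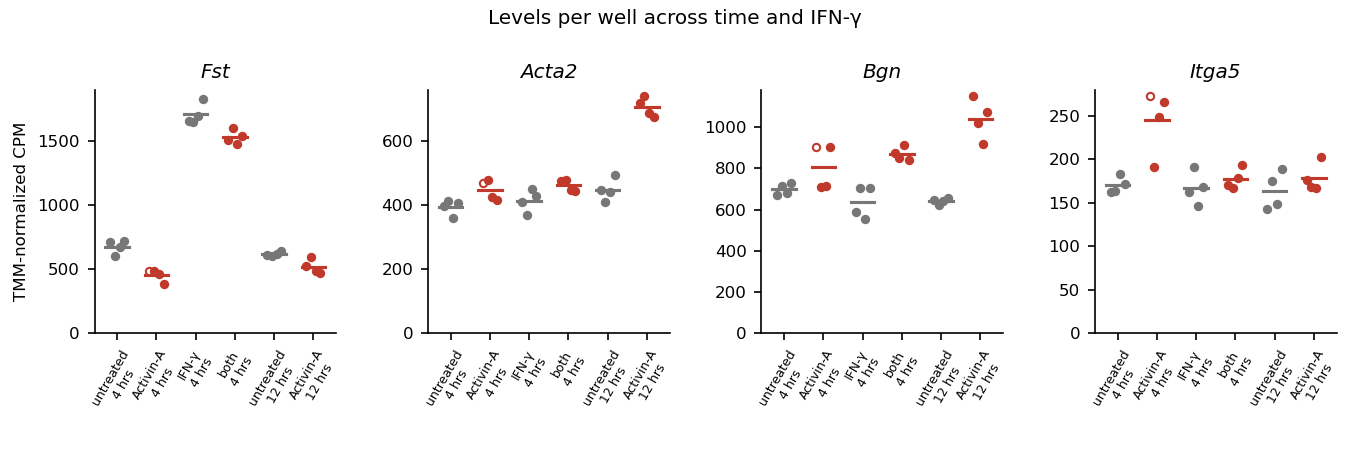
Levels of Fst, Acta2, Bgn and Itga5 in each well (TMM-normalized CPM; 4 and 12 hrs normalized separately) of untreated, Activin-A, IFN-γ and combined groups, with the line the mean of 4 wells and the open circle replicate 1 of Activin-A at 4 hrs. Acta2 and Bgn lie apart between groups at 12 hrs, and Fst lies at 1479 CPM or more in the 8 wells with IFN-γ at 4 hrs.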

How the data were processed

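The deposited table held whole-number read counts for 12451 Ensembl genes, which the authors had not normalized. Per the labels, the submitters' processing notes name STAR 2.7.10b, featureCounts, DESeq2 1.36.0 and GRCm39. Collapse of unique molecular identifiers and a strand setting were not given in the sources used here, so that duplicates and reads shared between related, overlapping or antisense genes were left as counted. Of the identifiers, 12437 were matched to a symbol in GENCODE M21 on GRCm38, from which positions, transcript lengths and GC content were taken.

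Groups followed the labelled treatment and time. After filterByExpr and TMM normalization, edgeR 4.0.16 (R 4.3.3; glmQLFit, glmQLFTest) was fitted to the 16 wells of a time, or to all 32 for differences between times. Benjamini-Hochberg adjustment covered all tested genes, and an adjusted p under 0.05 defined DEGs. A prior count of 2 entered log2 CPM, and printed CPM use TMM totals. At 1455074 to 654539 counts per well, 3 counts are 2.06 to 4.58 CPM. The edgeR fit at 4 hrs, with and without the replicate block, was also run on simulated data. The outcome is not given here, and no conclusion is drawn from it.

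Alternatives were DESeq2 (version 1.42.0 here; the study's methods name the tool in another version), limma 3.58.1 (voom with quality weights), RLE, other filters, robust dispersion, the replicate number as a block, other sets of wells, stricter thresholds and each well left out. Removal of a length trend, and the fit of the comparison with IFN-γ without replicate 1 of Activin-A, were chosen after seeing the data. Counts of alternatives in which a call was lost include the stricter thresholds, adjusted p under 0.01 and absolute log2FC of at least 0.5. A gene short of these loses its call by construction. Losses to a stricter threshold alone, as for Ski, Itgav, Col5a2, Col18a1, Cald1, Pdlim7, Bnip3 and Mt1, are not given gene by gene.

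Members and gene lists were chosen with earlier results of these data known. Genes were named by a rule: the 15 highest and 15 lowest DEGs that were DEGs with and without replicate 1 of Activin-A and had at least 10 counts on average, DEGs of the lists, members of the activin, Smad and BMP lists, up to 5 genes per direction lost or gained without that replicate, and genes called for a difference between times. Pdgfc, Mt1, Acsbg1, Fgd3 and the promoters shown were chosen after their values were seen. Some named genes are not reported here.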

Additional observations from a re-analysis of the deposited data

Results flagged for a closer look

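In 188 groups of 4 wells a well far from the other 3 was looked for, and 10 were found, where chance alone gives about 1 in 20. Given for each is the gap of the far well to its nearest neighbour as a share of the range of the group. In untreated wells this share was 0.979 for Cdkn1a, with 176 CPM in replicate 4 against 147 to 148 CPM, 0.904 for Mt2, with 157 CPM in replicate 4 against 269 to 281 CPM, and 0.868 for Psph, with 40.3 CPM in replicate 2 against 54.0 to 56.1 CPM. Replicate 2 of Activin-A was far below the others for Pdgfa (share 0.941, 214 CPM against 256 to 259 CPM).

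Replicate 1 of Activin-A was the far well in 6 groups. It was lower for Ttll5 (share 0.878, 44.9 CPM against 56.6 to 58.2 CPM) and Btc (share 0.913, 137 CPM against 168 to 171 CPM). It was higher for Zbtb14 (share 0.844, 18.5 CPM against 3.06 to 5.46 CPM), Fgf7 (share 0.924, 36.3 CPM against 27.5 to 28.2 CPM) and Amigo2 (share 0.918, 177 CPM against 119 to 124 CPM). Zbtb14, Fgf7 and Amigo2 had been named because they were gained without this well, and Btc because it was lost. The rank correlation of a well's deviation with transcript length was 0.309 in replicate 1 and -0.115 to -0.102 in the other Activin-A wells (share 0.969).

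The effect of Activin-A differed between times for Acta2 (0.495, 12 hrs minus 4 hrs on the log2 scale) and Bgn (0.49), by the test of the difference itself.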

How the results depend on the processing

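The 150 DEGs at 4 hrs became 106 (72 higher, 34 lower) with only the 8 wells compared and 181 with all 32 wells in 1 fit. The count was 86 at an adjusted p under 0.01, 87 with an absolute log2FC of at least 0.5 and 92 with DESeq2. It was 110 to 163 when 1 well was left out. At 12 hrs, 216 became 103 with that minimum and 140 with DESeq2, and 170 to 201 with a well left out. With IFN-γ, 74 became 40, 49 and 45, respectively, 115 with voom, and 47 to 134 with a well left out, the highest without Activin-A replicate 1. The difference between times was called for 1 gene at an adjusted p under 0.01, 0 with the minimum log2FC and 0 to 3 with a well left out, in which Nqo1, Fam213a and Psph joined. The difference by IFN-γ was called for 1 gene, Fst, with no filter, robust dispersion, voom or all 32 wells, and for 0 or 1 with a well left out. The cause of these shifts was not tested, except that fewer genes pass stricter thresholds by construction.

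Same-numbered wells were no more alike (mean r -0.00273 across genes) than others (0.000907), so that the replicate numbers do not pair the wells. With the replicate block the counts were 147, 218, 69, 2 and 0. Of 71 named DEGs at 4 hrs, 71 kept their sign and 30 their call in every alternative run. Precision was lowest in low genes, with a median SE of log2FC of 0.373 under 10 CPM at 654539 to 1455074 counts per well.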
